A study of Mus musculus with 12 samples.

Results

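The 10 p38 and JNK stress kinase genes of a mouse inflammation panel were followed in the oviduct after a systemic dose of lipopolysaccharide (LPS), the endotoxin of Gram-negative bacteria. They were chosen by gene name among the 185 endogenous probes of the panel: Map3k1, Map3k5 and Map3k9, Map2k4 and Map2k6, Mapk8 and Mapk14, and Mapkapk2, Mapkapk5 and Rps6ka5. Whole oviducts came from female CD1 mice, 6 to 8 weeks old, that were injected intraperitoneally on the day of estrus and killed 24 h later. The LPS, from Escherichia coli serotype 055:B5 in phosphate-buffered saline, was given to the high dose group at 10 µg and to the low dose group at 2 µg, while control animals got 0 µg, and each group had 4 mice. Digital counts of single mRNA molecules were read on the nCounter GX Mouse Inflammation Kit, 1 lane per mouse. CD1 is an outbred stock. The comparisons ask whether LPS changed the amounts of these mRNAs at either dose, and whether the doses differed.

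Stress-activated kinases are relayed in tiers. A MAP3K phosphorylates a MAP2K, the MAP2K phosphorylates p38 or JNK on a threonine and a tyrosine, and the activated kinase phosphorylates transcription factors and further kinases. LPS is sensed by Toll-like receptor 4, whose adaptors and the kinase TAK1 feed both arms in macrophages and epithelia. The regulation known best in this cascade is by phosphorylation, which an mRNA count does not measure.

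Members were ordered by tier. Map3k1 (MEKK1), Map3k5 (ASK1, which responds to oxidative and cytokine stress) and Map3k9 (MLK1) are the MAP3Ks. Map2k4 (MKK4) activates JNK and can also activate p38, and Map2k6 (MKK6) activates p38. Mapk8 encodes JNK1 and Mapk14 encodes p38 alpha. Mapkapk2 (MK2) acts below p38 to stabilise cytokine mRNAs, Mapkapk5 (PRAK, or MK5) is a related kinase, and Rps6ka5 (MSK1) phosphorylates CREB and histone H3 in the nucleus.

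The promoters of 3 kinases are shown beside those of 2 cytokine genes whose mRNAs are controlled through p38 and MK2, since the results set the kinase mRNAs beside that group. Each line is the 250 bases before the annotated start farthest upstream, 5′ to 3′ on the strand of the gene, from RefSeq, assembly GRCm38.p6. All 10 members had an entry. Capitals mark matches on either strand to any of 5 short motifs. The GC box, bound by Sp1 family factors, was searched as GGGCGG. The site of AP-1, the Fos and Jun dimer that JNK acts on, was searched as TGAGTCA. The cyclic AMP response element, bound by CREB, was searched as TGACGTCA. A form of the NF-kB site was searched as GGGANTTTC, and the TATA box as TATAAA. The motifs were picked after the Cxcl1 window had been seen.
Mapk14 chr17:28691092-28691341 (+ strand): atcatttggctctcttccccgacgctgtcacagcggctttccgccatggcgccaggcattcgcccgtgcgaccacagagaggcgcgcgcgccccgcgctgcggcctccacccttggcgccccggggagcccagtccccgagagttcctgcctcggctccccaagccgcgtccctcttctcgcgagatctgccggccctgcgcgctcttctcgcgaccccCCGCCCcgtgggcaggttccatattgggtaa
Mapk8 chr14:33447159-33447408 (- strand): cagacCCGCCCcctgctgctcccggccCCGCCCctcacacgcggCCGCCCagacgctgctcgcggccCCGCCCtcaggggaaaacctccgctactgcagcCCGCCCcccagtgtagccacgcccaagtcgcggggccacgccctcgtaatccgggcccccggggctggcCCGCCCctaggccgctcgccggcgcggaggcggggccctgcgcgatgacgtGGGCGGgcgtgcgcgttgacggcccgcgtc
Mapkapk2 chr1:131097844-131098093 (- strand): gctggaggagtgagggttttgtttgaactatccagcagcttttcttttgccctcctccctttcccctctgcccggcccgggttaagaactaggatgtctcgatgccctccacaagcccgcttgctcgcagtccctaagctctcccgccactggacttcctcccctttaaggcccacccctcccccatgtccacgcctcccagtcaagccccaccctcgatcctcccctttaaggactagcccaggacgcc
Cxcl1 chr5:90890995-90891244 (+ strand): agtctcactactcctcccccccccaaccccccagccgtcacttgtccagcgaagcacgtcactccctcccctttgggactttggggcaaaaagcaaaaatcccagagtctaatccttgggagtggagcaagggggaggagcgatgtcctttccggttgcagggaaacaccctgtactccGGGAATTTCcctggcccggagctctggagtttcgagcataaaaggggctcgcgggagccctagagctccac
Il1b chr2:129371140-129371389 (- strand): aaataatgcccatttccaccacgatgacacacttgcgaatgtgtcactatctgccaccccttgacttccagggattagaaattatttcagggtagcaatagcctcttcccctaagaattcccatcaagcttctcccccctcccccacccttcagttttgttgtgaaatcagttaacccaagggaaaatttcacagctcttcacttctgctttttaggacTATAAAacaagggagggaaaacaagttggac

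Composition varied among the windows. G and C made up 70.4% of the Mapk14 window, 79.2% of Mapk8 and 60.4% of Mapkapk2, beside 59.2% of Cxcl1, 44.4% of Il1b and a median of 52.4% over all 32851 promoter windows of the table. Over the 10 members the share ran from 50.4% in Map2k6 to 85.2% in Map3k1, so that Cxcl1 lay within the range of the members, with 6 to 45 CpG dinucleotides against a median of 6 over the table. A GC box was found in 6 of 10 members, 7 times in Mapk8 and 1 time in Mapk14, and in 32.7% of all windows. TATAAA was found in 0 of 10 members and in 12.4% of all windows, and Il1b held 1 copy. The NF-kB form was found in 0 of 10 members and in 0.941% of all windows, and Cxcl1 held 1 copy. TGAGTCA was found in 0 of 10 members against 4.46% of all windows, and TGACGTCA in 0 of 10 against 1.55%. Looser letters had been searched first and were narrowed after their matches were seen. The looser AP-1 form, TGANTCA, was found in 1 of 10 members, Map2k6, and in 6.75% of all windows. A looser form of the NF-kB site, with more positions left free, was found in 1 of 10 members, Rps6ka5, and in 4.11% of all windows, with 2 copies in Cxcl1. These matches describe letters in a window and are not measured binding sites.

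Endogenous counts per lane ran from 98258 to 196878. Counts were put on a common scale in 2 ways. The reference gene scale divides each lane by the geometric mean of Cltc, Gapdh, Gusb, Hprt1, Pgk1 and Tubb5, and the Positive probe scale divides by the geometric mean of the 6 spiked Positive probes. The scales differed most in 2 control lanes: the reference over the Positive scale factor was 1.29 in control mouse 1 and 0.724 in control mouse 2, against 0.865 to 1.15 in the other 10 lanes. Tubb5, one of the reference genes, had a raw count of 2073 in control mouse 1 and 832 in control mouse 2, against 1089 to 1638 in the other lanes. Control mice 2 and 4 also had the fewest fields of view counted, at 73.7% and 62.3%, against 78.7% to 90.2% in the other lanes. Probe efficiencies differ, so counts are compared between mice for 1 gene and never between genes. In whole tissue, fewer cells of a type and less mRNA per cell cannot be told apart.

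All members were detected, with Map3k9 close to background. The other 9 exceeded the negative probe limit of their lane (mean plus 2 SD) in 12 of 12 lanes, with raw counts from 124 for Rps6ka5 in high dose mouse 4 to 1907 for Mapkapk2 in low dose mouse 1. Map3k9 had raw counts of 6 to 13 and passed that limit in 11 of 12 lanes. All 10 were among the 165 genes tested, of 179 inflammation genes. Defining markers of the oviduct epithelium (Ovgp1, Pax8, Foxj1) were not on the panel, so the tissue label was not checked against them.

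No member passed the test at either dose on either of the reference gene and Positive probe scales. In edgeR's quasi-likelihood test with Benjamini-Hochberg adjustment over the 165 genes and a threshold of 0.05, 0 of 10 members passed for high dose against control on the reference gene scale, where 22.4% of all genes tested passed. For low dose against control 0 of 10 passed, against 2.42% of all genes, and for high against low dose 0 of 10, against 6.67%. On the Positive probe scale the same 3 comparisons gave 0, 0 and 0 members, against 23%, 3.64% and 4.24% of all genes. The test over the 3 groups passed 0 of 10 members on either scale, against 19.4% of all genes on each, and the smallest adjusted p of a member by edgeR on these scales was 0.209, for Mapkapk2 on the reference gene scale. The series' own test, an analysis of variance over the 3 groups, passed 0 of 10 members after the same adjustment, against 15.8% of all genes, and 0 of 10 unadjusted, against 31.5%. At an unadjusted p under 0.05 edgeR passed 1 member, Mapkapk2, for high dose against control on the reference gene scale, against 32.1% of all genes in that direction.

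**Figure D1:**
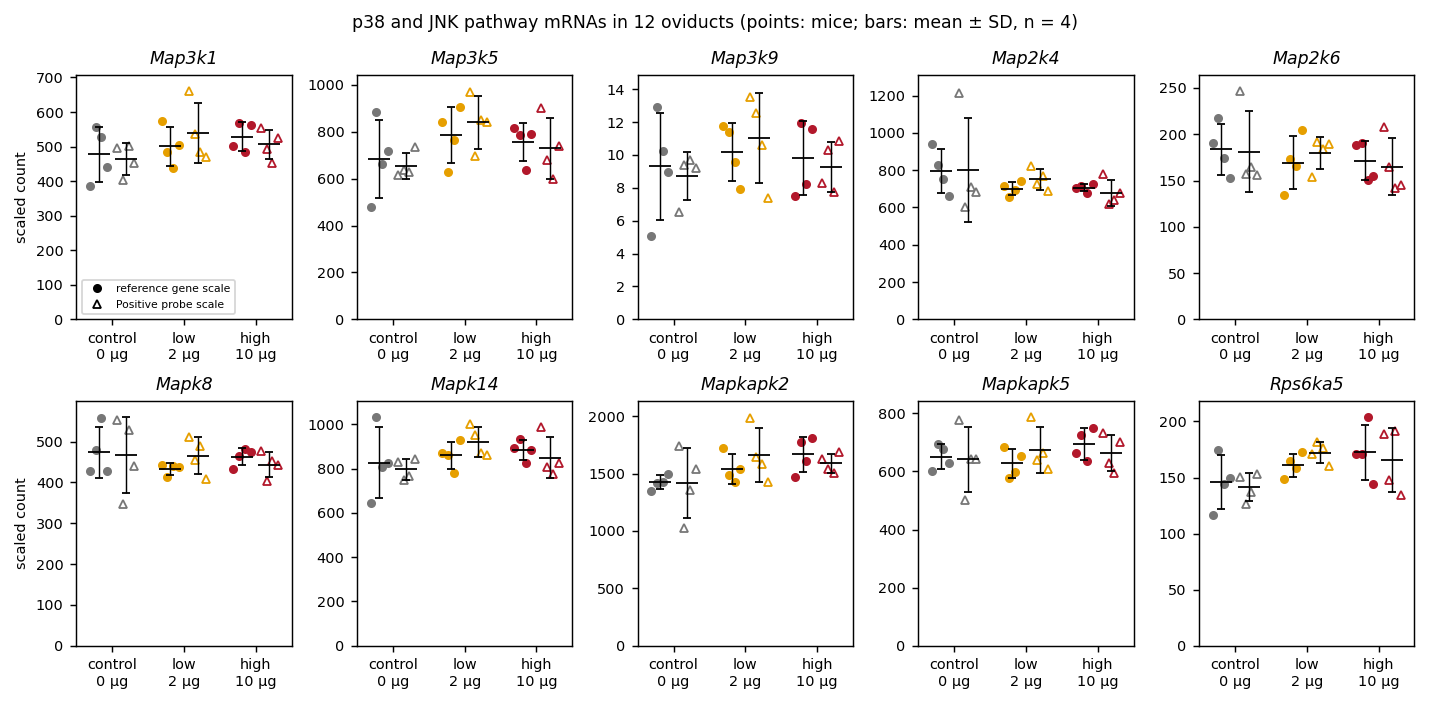
Scaled counts of the 10 kinase mRNAs (vertical axes, from 0) in control, low dose and high dose oviducts, with a filled circle per mouse on the reference gene scale and an open triangle on the Positive probe scale. Horizontal marks and bars give mean and SD of 4 mice; Mapkapk2 lay higher in 3 of 4 high dose mice than in all controls on the reference gene scale, and the spread of the controls is wide for several genes.

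Among the MAP3Ks, Map3k1 did not pass in any of the 3 comparisons on the reference gene or Positive probe scale. Its reference-scaled counts in mice 1 to 4 were 384.7, 555.3, 528.8 and 440.9 at 0 µg, 574.7, 485.7, 436.7 and 505.3 at 2 µg, and 502.5, 569.2, 483.2 and 561.3 at 10 µg. Control mouse 1 was lowest, all 4 high dose mice lay above the control mean, and the groups overlapped. The log2 fold change was 0.15 ± 0.13 (SE) for high dose against control (edgeR adjusted p = 0.481), with a 95% interval of 0.911 to 1.35-fold. With the total count it turned and passed as lower, at -0.43 on the log2 scale.

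Map3k5, the ASK1 gene, varied more among the controls. It had 477.5, 882.7, 663.8 and 718.2 reference-scaled counts at 0 µg, 843.6, 630.1, 765.9 and 905.6 at 2 µg, and 816.2, 786.0, 635.7 and 790.9 at 10 µg. The controls spanned nearly the whole range, and high dose mouse 3 lay below its group. On this scale the high dose exceeded control by 0.14 ± 0.18 and the low dose by 0.20 ± 0.18 (log2, SE), with edgeR adjusted p of 0.626 and 0.703. For high against low dose Map3k5 was at -0.05 (log2), and it passed as lower only with the total count among the scales run, at -0.52. Scaled by the Positive probes, Map3k5 averaged 839.9 ± 112.0 in low dose mice and 655.5 ± 54.8 in controls (SD, n = 4 each), and 3 of 4 low dose mice lay above all controls. That difference, 0.36 ± 0.14 on the log2 scale or 1.28-fold (95% interval 1.03 to 1.59), had an unadjusted p of 0.0294 and an edgeR adjusted p of 0.194. On that scale 1 of 10 members, Map3k5, had an unadjusted p under 0.05 at the low dose, against 21.2% of all genes tested in that direction.

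Map3k9, the MLK1 gene, was counted only a few times per lane. Its reference-scaled counts averaged 9.81 ± 2.28 in high dose mice and 9.30 ± 3.28 in controls (SD, n = 4 each). The 95% interval for high dose over control ran from 0.691 to 1.67-fold, the widest of the 10 members.

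The MAP2Ks had lower means in high dose mice than in controls, and whether they passed depended on the scale: neither did on the reference gene or Positive probe scale. Map2k4, the MKK4 gene, had 940.6, 829.6, 750.8 and 663.3 reference-scaled counts at 0 µg, 713.2, 658.1, 693.3 and 741.1 at 2 µg, and 705.0, 714.4, 678.6 and 724.8 at 10 µg. The dosed mice were tightly grouped and the controls were not: SD was 19.8 in high dose mice, 34.9 in low dose mice and 118 in controls. All 8 dosed mice lay below the control mean, yet control mouse 4 lay below all 4 high dose mice. The log2 fold change for high dose against control was -0.17 ± 0.10 (SE, edgeR adjusted p = 0.247) and for low dose against control -0.18 ± 0.10 (adjusted p = 0.465). At the high dose Map2k4 passed as lower with TMM (-0.45, edgeR adjusted p = 0.0296), DESeq2's size factors (-0.48), DESeq2's own test (-0.49) and the total count (-0.78). The highest control rested on raw counts of 1115 in control mouse 1, against 641 to 734 in the other 3 controls. That mouse had 1215 counts on the Positive probe scale too, against 600.8 to 711.7 in the other controls. On the reference gene scale, leaving out 1 mouse at a time gave Map2k4 -0.25 to -0.08 (log2) for high dose against control. The value was -0.08 without control mouse 1. It was -0.003 without control mice 1 and 2, and -0.26 without control mice 2 and 4.

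Map2k6, the MKK6 gene, averaged 171.4 ± 21.3 reference-scaled counts in high dose mice and 183.6 ± 27.4 in controls (SD, n = 4 each), and the groups overlapped. The fold for high dose over control was 0.934 (95% interval 0.733 to 1.19, edgeR adjusted p = 0.737). With the total count it passed as lower, at -0.68 on the log2 scale. Control mouse 1 was also highest for Map2k6 on the Positive probe scale, at 246.3 against 156.5 to 164.8 in the other controls.

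The mRNAs of the stress kinases themselves did not pass at either dose on the reference gene or Positive probe scale. Mapk14, p38 alpha, had 642.8, 1034, 808.1 and 823.9 reference-scaled counts at 0 µg, 870.7, 861.1, 781.8 and 927.4 at 2 µg, and 893.7, 935.6, 827.5 and 882.5 at 10 µg. Control mice 1 and 2 held both the lowest and the highest value of all 12 mice, and every dosed mouse fell between them. The high dose over control fold was 1.07 (95% interval 0.886 to 1.29, edgeR adjusted p = 0.647). With the total count Mapk14 turned and passed as lower, at -0.47 on the log2 scale. Scaled by the Positive probes, Mapk14 averaged 921.1 ± 67.3 in low dose mice and 797.6 ± 47.3 in controls (SD, n = 4 each), and the groups did not overlap. The difference of 0.21 ± 0.11 (log2, SE) did not pass there (edgeR adjusted p = 0.315).

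Mapk8, the JNK1 gene, had 426.9, 478.9, 558.5 and 428.9 reference-scaled counts at 0 µg, 443.5, 412.2, 440.7 and 437.9 at 2 µg, and 432.5, 465.1, 482.2 and 473.2 at 10 µg. Control mouse 3 was the highest of the 12 mice, and 3 of 4 high dose mice lay above every low dose mouse. High dose over control was 0.979-fold (95% interval 0.847 to 1.13) and high over low dose was 1.07-fold (0.925 to 1.23), with edgeR adjusted p of 0.852 and 0.583. At the high dose Mapk8 passed as lower than control with TMM (-0.29 on the log2 scale, edgeR adjusted p = 0.039), DESeq2's size factors (-0.32), DESeq2's own test (-0.33) and the total count (-0.61).

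Below p38, Mapkapk2 had the smallest p of the members for high dose against control on the reference gene scale, though not on the Positive probe scale. Its reference-scaled counts were 1349, 1420, 1429 and 1499 at 0 µg, 1726, 1486, 1423 and 1538 at 2 µg, and 1474, 1779, 1606 and 1808 at 10 µg. High dose mice 2, 3 and 4 lay above every control, and high dose mouse 1 lay inside the control range. The mean was 1667 ± 157 in high dose mice and 1424 ± 61.5 in controls (SD, n = 4 each), a log2 difference of 0.23 ± 0.09 (SE) or 1.17-fold (95% interval 1.03 to 1.33). It did not pass, at an unadjusted p of 0.0228 and an edgeR adjusted p of 0.082. Without high dose mouse 1 the log2 difference was 0.28 and the adjusted p 0.0343, in a fit where 27.3% of all genes passed. On the Positive probe scale the log2 difference was 0.17 ± 0.16 (SE, adjusted p = 0.605) and 0 of 4 high dose mice lay above every control. With the total count Mapkapk2 turned and passed as lower, at -0.36 on the log2 scale.

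The other kinases below p38 did not pass on the reference gene or Positive probe scale. Rps6ka5, the MSK1 gene, had 116.4, 174.7, 144.2 and 149.6 reference-scaled counts at 0 µg, 148.4, 164.5, 158.6 and 172.4 at 2 µg, and 171.2, 171.3, 203.7 and 143.8 at 10 µg. Control mouse 2 lay above 3 of 4 high dose mice. The high dose exceeded control by 0.24 ± 0.15 (log2, SE; edgeR adjusted p = 0.285), or 1.18-fold (95% interval 0.946 to 1.47). Scaled by the Positive probes, all 4 low dose mice, at 160.2 to 181.9, lay above all 4 controls, at 126.5 to 153.5, but the adjusted p was 0.344. Mapkapk5 averaged 694.0 ± 54.5 in high dose mice and 651.0 ± 43.6 in controls (SD, n = 4 each), 1.07-fold (95% interval 0.933 to 1.22, edgeR adjusted p = 0.505). Its direction turned, and it passed as lower, in DESeq2's own test (-0.21 on the log2 scale, adjusted p = 0.0276) and with the total count (-0.49).

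Members with groups that did not overlap were counted on both scales, beside the share over all genes tested. On the reference gene scale 0 of 10 members had every high dose mouse above every control, against 25.5% of the genes tested, and 0 of 10 had every low dose mouse above every control, against 3.64%. On the Positive probe scale 2 of 10, Mapk14 and Rps6ka5, had every low dose mouse above every control, against 7.88% of the genes tested, and 0 of 10 had every high dose mouse above every control, against 26.1%.

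**Figure D2:**
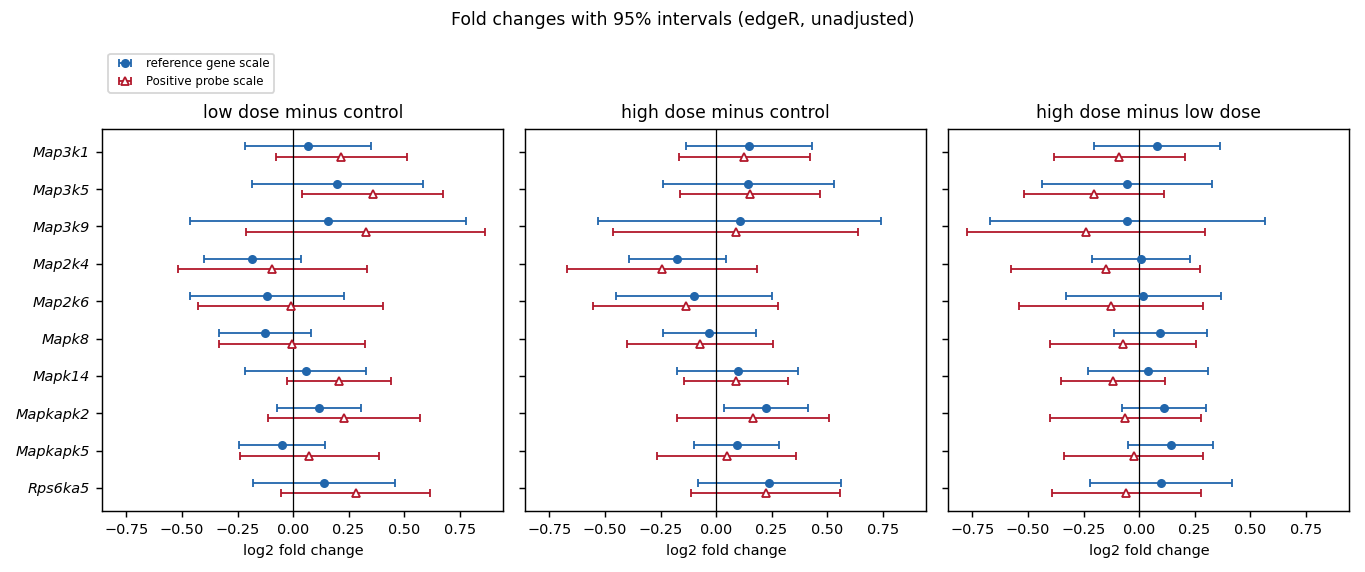
Log2 fold changes (horizontal axes) of the 10 kinase mRNAs with 95% intervals, in panels for the low dose against control, the high dose against control and the high against the low dose, on the reference gene scale (filled circles) and the Positive probe scale (open triangles). Most intervals include 0; Mapkapk2 at the high dose on the reference gene scale and Map3k5 at the low dose on the Positive probe scale do not, before adjustment.

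The intervals bounded the size of the differences only for a given lane scale. With the total count Map2k4 was at -0.78 and Map2k6 at -0.68 (log2) for high dose against control. The lowest limit of a member on the 2 scales below was -0.67 (log2), for Map2k4 on the Positive probe scale. For high dose over control on the reference gene scale, the unadjusted 95% intervals of the 9 members other than Map3k9 ran between 0.733 and 1.47-fold, and on the Positive probe scale between 0.629 and 1.47-fold. For low dose over control they ran between 0.724 and 1.498-fold on the reference gene scale and between 0.698 and 1.59-fold on the Positive probe scale. All 10 members had fitted folds within 1.25-fold of control in either direction at the high dose on the reference gene scale, as did 86 of the 165 genes tested. At the low dose all 10 did, beside 108 of 165, and for high against low dose all 10, beside 88 of 165. On the Positive probe scale 8 of 10 did at the low dose, the others being Map3k5 at 1.28-fold and Map3k9 at 1.254-fold. Other settings held fewer members within 1.25-fold at the high dose. These were 8 of 10 with TMM, 7 with DESeq2 size factors and 0 with the total count, beside 88, 82 and 37 of 165 genes. On the reference gene scale without control mice 2 and 4 they were 7 of 10, beside 71 of 165. A missed threshold at 4 mice a group does not show that the groups are equal.

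The direction of the members depended on the scale. At the high dose 7 of 10 members had a fitted value above control on the reference gene scale and on the Positive probe scale. So did 127 and 119 of the 165 genes tested on these scales. After scaling by TMM, by DESeq2 size factors or by the total endogenous count 0 of 10 members did. Of all 165 genes 79, 76 and 52 did there. The median of all 165 genes for high dose against control was 0.24 on the reference gene scale, -0.01 with TMM, -0.04 with size factors and -0.34 with the total count (log2). The members' median was 0.10 on the reference gene scale and lay 0.14 below the median of the genes tested. It lay 0.12 below on the Positive probe scale, 0.14 with TMM and 0.13 with the total count. With TMM, Map2k4 and Mapk8 passed as lower than control, at -0.45 ± 0.14 and -0.29 ± 0.10 (log2, SE; edgeR adjusted p = 0.0296 and 0.039), where 13.9% of all genes passed as lower. With DESeq2's size factors the same 2 genes passed as lower, against 15.2% of all genes, and DESeq2's own test passed these and Mapkapk5 as lower, against 19.4%. With the total count 7 of 10 members passed as lower than control, against 37.6% of all genes, and for high against low dose 6 of 10 passed as lower, against 21.8%. Over the 3 groups 7 of 10 passed with the total count, against 43.6% of all genes, and 2 of 10 by DESeq2, against 35.2%. For high against low dose 8 of 10 members lay above 0 on the reference gene scale, beside 136 of 165 genes. On the Positive probe scale 0 of 10 did, beside 93 of 165.

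**Figure D3:**
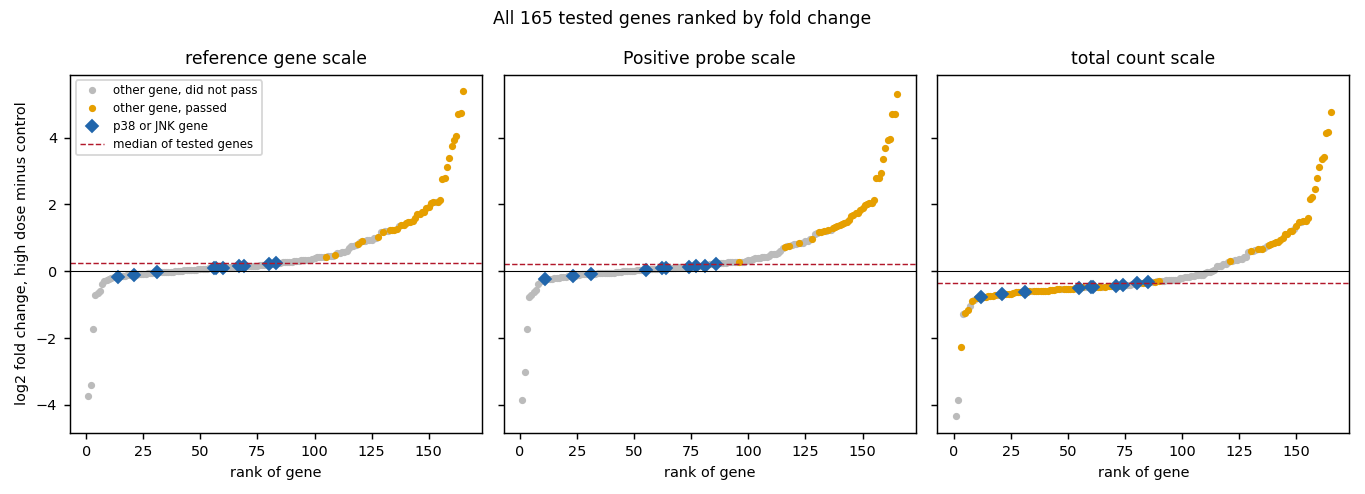
Log2 fold changes of the 165 tested genes for high dose minus control (vertical axis), in rank order on the reference gene, Positive probe and total count scales; blue diamonds mark the 10 kinase mRNAs and orange points other genes that passed. The dashed line is the median of the tested genes, at 0.24, 0.20 and -0.34, and the kinase mRNAs stay in the lower and middle ranks on each scale.

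The members' raw counts and their share of the panel behaved differently. The 10 probes summed to 5557 ± 671 raw counts in high dose mice, 6514 ± 370 in low dose mice and 5525 ± 502 in controls (SD, n = 4 each). As a share of all endogenous counts they made up 3.38% ± 0.23 in high dose mice, 4.47% ± 0.50 in low dose mice and 4.74% ± 0.29 in controls (SD, n = 4 each). Every high dose mouse, at 3.18% to 3.65%, lay below every control, at 4.39% to 5.01%. C3, the central complement protein, took 22.7% ± 2.0 of endogenous counts in high dose mice and 8.86% ± 3.32 in controls. With C3 left out the kinase share was 4.37% ± 0.19 in high dose mice and 5.20% ± 0.15 in controls (SD, n = 4 each), without overlap. The other genes that rose at the high dose stayed in that total. A lower share was not particular to the kinases. With the total count the median of all 165 genes was -0.34 (log2), beside -0.47 for the members, and 37.6% of all genes passed as lower. The cause of the lower share was not tested.

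**Figure D4:**
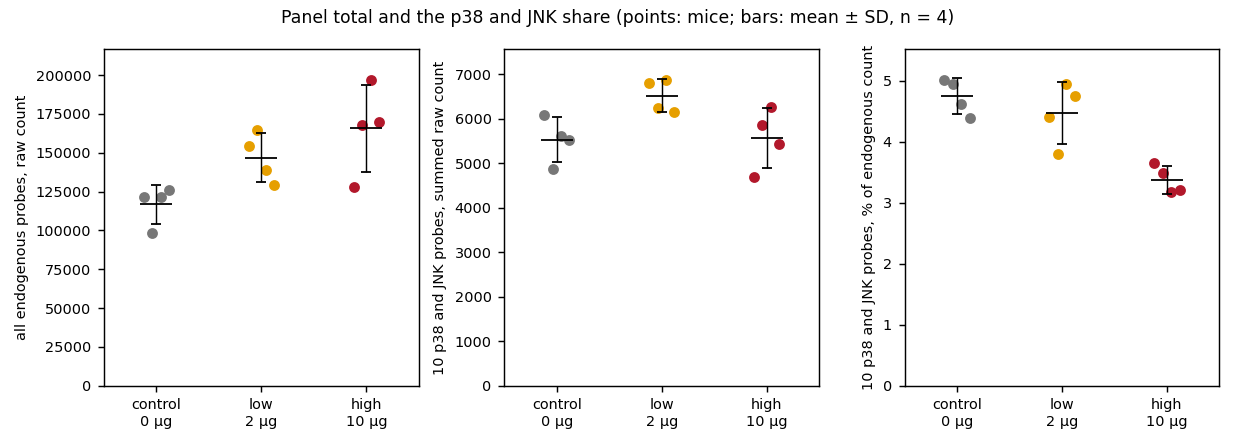
Raw count of all endogenous probes, summed raw count of the 10 p38 and JNK probes, and their share of the endogenous count in percent (vertical axes, from 0) for control, low dose and high dose mice; points are mice, and marks and bars give mean and SD. The kinase sum is alike in high dose and control mice, at 5557 and 5525, while the share averages 3.38% in high dose and 4.74% in control mice.

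Ratios of kinase mRNAs within a lane need no scale. Of 8 pairs set by role and 3 comparisons, 0 of 24 passed a two-sided exact permutation test after adjustment over the 24 (all adjusted p at least 0.847). The smallest exact p that 4 mice against 4 allow is 0.0286. After adjustment over the 24, a single ratio at that p could not pass, so the 0 of 24 cannot decide whether 1 ratio changed. Mapk14 over Mapk8, p38 alpha over JNK1, averaged 0.93 ± 0.12 in high dose mice and 0.79 ± 0.28 in controls (log2, SD, n = 4 each), a difference of 0.14 (exact permutation p = 0.371). In control mice 1 to 4 that ratio was 0.59, 1.11, 0.53 and 0.94, a range that held all 8 dosed mice. Map2k6 over Map2k4, which set the p38 kinase against the JNK kinase, differed by 0.07 between high dose and control mice (exact permutation p = 0.6).

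The MK2 to MK5 ratio had the smallest p. Mapkapk2 over Mapkapk5 was 1.15, 1.29, 1.34 and 1.27 in high dose mice and 1.17, 1.03, 1.07 and 1.25 in controls (log2), a difference of 0.13 (exact permutation p = 0.0857). At the low dose the difference from control was 0.16 (exact permutation p = 0.0857). Both adjusted to 0.847, and the groups overlapped. Mapkapk2 over Mapk14 differed by 0.11 for high dose against control (exact permutation p = 0.571), and Rps6ka5 over Mapk14 by 0.13 (exact permutation p = 0.429).

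**Figure D5:**
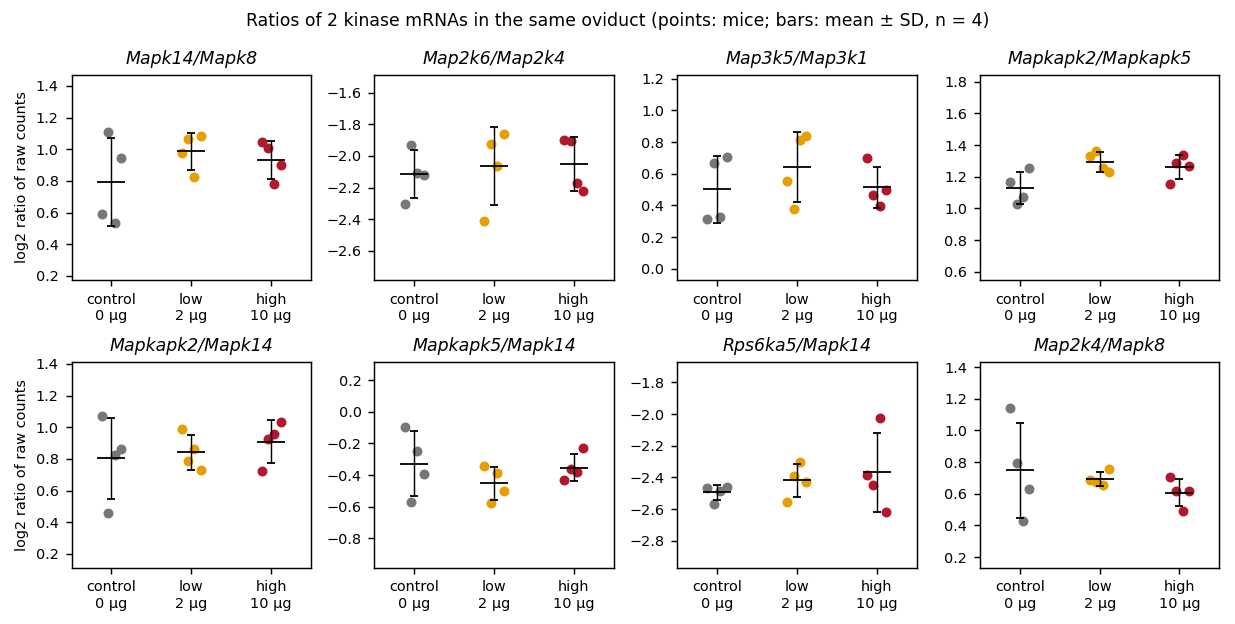
Log2 ratios of raw counts of 8 pairs of kinase mRNAs within each oviduct (vertical axes, each 1.3 units high), by dose; points are mice, and marks and bars give mean and SD of 4 mice. The groups overlap for all 8 pairs, and controls spread widest for Mapk14 over Mapk8 and Map2k4 over Mapk8.

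Spread among mice was described by the coefficient of variation. The members' median coefficient of variation on the reference gene scale was 8.73% in high dose mice, 8.21% in low dose mice and 15.6% in controls. Over all 165 genes it was 16.3%, 19.7% and 21.3%. Among genes with a mean count of at least 100, the medians were 8.07%, 7.96% and 14.9% for 9 members, and 10.2%, 14.4% and 17.2% for the 99 genes of that level. No test of these spreads was made.

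Other genes of the pathway were read from fixed lists. Of 11 upstream adaptors and kinases on the panel, 0 passed for high dose against control on the reference gene scale (median log2 fold change 0.16, against 0.24 over all genes). The lowest value was that of Cdc42, a small GTPase, at -0.04. Tnf, the cytokine that signals into JNK, averaged 25.4 ± 8.41 reference-scaled counts in high dose mice and 6.29 ± 3.77 in controls (SD, n = 4 each; edgeR adjusted p = 0.0611), but lay above the negative probe limit in 1 of 4 control lanes, so its fold is not given. On the Positive probe scale 2 of 11 passed, Tnf (edgeR adjusted p = 0.0366) and the LPS receptor gene Tlr4, where 23% of all genes passed. Of 8 genes of the ERK arm 0 passed (median -0.05), from Map2k1, which encodes MEK1, at -0.17 ± 0.09 to Mapk3, which encodes ERK1, at 0.12 ± 0.11 (log2, SE). Of 15 downstream substrates and transcription factors 0 passed (median 0.06), from Myc at -0.27 ± 0.20 to Fos at 0.80 ± 0.52 (log2, SE). In all 3 lists 0 genes passed for low dose against control and for high against low dose on either scale.

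Inflammatory mRNAs known in macrophages to be regulated through p38 and MK2 included 6 that rose. For high dose against control 6 of 12 rose, where 22.4% of all genes passed, and 0 fell (median log2 fold change 1.53, against 0.24 over all genes): Il1b, Cxcl1, Cxcl2, Ccl2, Ccl3 and Ccl4. Scaled by the Positive probes 7 of 12 rose, these and Tnf, against 23% of all genes. Tnf is also counted among the upstream genes above. Ccl2, a monocyte chemokine, averaged 660.5 ± 175.5 reference-scaled counts in high dose mice and 48.9 ± 14.1 in controls (SD, n = 4 each), a log2 fold change of 3.75 ± 0.47 (SE, edgeR adjusted p = 0.000297). Cxcl1, a neutrophil chemokine whose promoter is shown above, averaged 68.2 ± 30.3 in high dose mice and 9.88 ± 3.76 in controls (SD, n = 4 each), 2.80 ± 0.44 higher on the log2 scale (SE, edgeR adjusted p = 0.000971). Ccl3 rose by 1.71 ± 0.37 and Il1b by 1.27 ± 0.34 (log2, SE; edgeR adjusted p = 0.00501 and 0.0178). Cxcl2 lay above the negative probe limit in 0 of 4 control lanes, so its fold is not given. The median of the list includes Cxcl2 and Tnf. For high against low dose 2 of 12 rose, Cxcl1 and Ccl2, against 6.67% of all genes, and for low dose against control 0 of 12 passed. The list was named for a known route of control, and the counts do not show that p38 or MK2 acted here. It was chosen with earlier results of these data known, so its share of genes that rose is a description.

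Markers of other cells were summed per mouse on the reference gene scale. The 4 macrophage and monocyte markers summed to 4034 to 5058 in high dose mice, 1357 to 5114 in low dose mice and 1470 to 2077 in controls. Of these, 3 of 4 rose at the high dose (C1qa, C1qb, C3ar1), where 22.4% of all genes passed, and 0 of 4 passed at the low dose, whose range overlapped that of the controls. The 3 neutrophil markers summed to 196.2 to 356.7 in high dose mice, 125.1 to 281.8 in low dose mice and 77.6 to 124.7 in controls. At the high dose 2 of 3 rose (Il8rb, Itgb2), where 22.4% of all genes passed. At the low dose 1 of 3 rose, Il8rb, where 2.42% of all genes passed. Il8rb lay above the negative limit in 0 of 4 control lanes. Itgb2 made up most of the sum, averaging 234.3 in high dose mice and 99.8 in controls, so the sum mainly follows that gene. The 7 T and NK cell markers summed to 112.3 to 133.3 in high dose mice, 82.1 to 138.3 in low dose mice and 54.0 to 93.2 in controls. Of them 2 of 7 rose at the high dose (Il18rap, Il23r), a share near that of all genes, and 0 of 7 passed at the low dose on this scale. On the Positive probe scale 1 of 7, Il18rap, passed at the low dose, where 3.64% of all genes passed. Il18rap lay above the negative limit in 2 of 4 control lanes and Il23r in 3 of 4. The 3 genes listed for smooth muscle and vessel were Pdgfa, Ppp1r12b and Myl2. They summed to 811.2 to 937.0 in high dose mice, 705.3 to 983.9 in low dose mice and 669.8 to 898.1 in controls. Of these 0 of 3 passed at either dose. In controls Pdgfa averaged 729.8, Ppp1r12b 59.8 and Myl2 5.82, so the sum mainly follows Pdgfa and is no measure of these tissues. Myl2 lay above the negative limit in 1 of 4 control lanes. The part of these cells in the kinase and chemokine values was not tested.

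Across the 12 mice, other genes followed the members' mean profile on each scale. The likeness is Pearson's r over 12 mice between the mean log2 level of the 10 members and each of the 155 other genes tested. On the reference gene scale Tlr4 (r = 0.89), Mapk3 (0.86) and Maff (0.86) were nearest, and on the Positive probe scale Tollip (0.91), Rac1 (0.90) and Tgfbr1 (0.89). The median r over all 155 genes was 0.37 on the reference gene scale and 0.38 on the Positive probe scale. The genes of 1 lane share its scale factor, so the values are a description.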

How the data were processed

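The authors deposited 1 table of raw probe counts with 1 column per lane; per the labels it comes from oviduct RNA with an integrity number above 9.7, and lane processing before the counts is not given in the sources used here. The values were labelled as estimated counts, because each deposited column ends in a decimal binding density. Every probe count was whole and entered the main fit unchanged, as a count. Groups came from the sample titles. Lanes were scaled as described, genes above mean plus 2 SD of the negative probes in at least 4 of 12 lanes were tested, and a quasi-likelihood model with group as the only term was fitted to all 12 lanes (edgeR 4.0.16, R 4.3.3). DESeq2 1.42.0 was an alternative. The procedure was tested on simulated data. Lanes of a group differed by more than sampling noise: over 18 pairs, chi-square per degree of freedom was at least 16.6. The members, lists and alternatives were chosen with earlier results of these data known. The named genes are the members, the reference genes and, of each list, up to 2 lowest and 2 highest genes that passed, or else the lowest and highest; Tlr4, C3, Cxcl2, Ccl4 and other genes in counts were named beyond it, after their values were seen. Same-numbered mice deviated together (r over 0.1) in 4 of 4 control and high dose pairs, 3 of 4 control and low dose pairs and 2 of 4 low and high dose pairs. The same-numbered control and high dose pairs had r of 0.105 to 0.378. Differently numbered pairs of these groups ran from -0.413 (control 2, high dose 4) to 0.399 (control 3, high dose 4). The highest r of any pair of groups was a same-numbered one, 0.578 (low dose 4, high dose 4). As same-numbered and differently numbered pairs overlapped in r, these values cannot decide whether the numbers paired the mice. The labels state no pairing, and a fit with the number as a block changed no kinase call. Accessions of 9 of 10 member probes matched RefSeq, and Mapkapk5 was matched by symbol.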

Additional observations from a re-analysis of the deposited data

Results flagged for a closer look

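Of 84 groups of 4 mice examined (10 members on 2 scales and 8 ratios, in 3 groups), 3 held a mouse set apart from its group; about 4.2 would be so by chance. Map3k5 had 635.7 reference-scaled counts in high dose mouse 3, against 786.0 to 816.2 in the other high dose mice. Map3k9 had 6.54 Positive-scaled counts in control mouse 1, against 9.21 to 9.70 in the other controls. Map2k6 had 246.3 Positive-scaled counts in control mouse 1, against 156.5 to 164.8 in the other controls.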

How the results depend on the processing

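Of the 10 kinases, 0 passed for low dose against control under any alternative run, and 0 of the 24 ratio tests passed under any. With so few mice a single ratio could not pass after adjustment, so the 0 for the ratios is no measure of stability. For high dose against control the count of genes was 37 on the reference gene scale; it was 57 with TMM, 59 with DESeq2 size factors, 92 with the total count and 67 with the DESeq2 test, and the kinases among them numbered 2, 2, 7 and 3, all lower. For low dose against control the gene count of 4 became 9 with DESeq2, 1 with only 2 groups fitted, 0 without control mice 2 and 4, and 1 without control mice 1 and 2. For high against low dose the gene count of 11 became 7 on the Positive probe scale, 45 with the total count (6 kinases, all lower), 20 with DESeq2, 7 after background subtraction and 7 without control mice 2 and 4. Over the 3 groups 7 kinases passed with the total count and 2 with DESeq2. Values that turned and passed with the total count were, for high dose against control, Map3k1 -0.43, Mapk14 -0.47, Mapkapk2 -0.36 and Mapkapk5 -0.49, and for high against low dose Map3k1 -0.38, Mapk8 -0.38, Mapk14 -0.42, Mapkapk2 -0.36 and Mapkapk5 -0.33 (log2); with DESeq2 Mapkapk5 was -0.21 for high dose against control. The cause was not tested. Uncalled members also changed sign: 7 for high dose against control with TMM and 8 for high against low dose on the Positive probe scale. Leaving out 1 mouse at a time gave 30 to 45, 1 to 14 and 6 to 14 genes in the 3 comparisons, the 14 low dose genes without low dose mouse 3, and 0 to 1, 0 to 0 and 0 to 0 kinases (0 to 0 over the 3 groups and among the ratios), the 1 being Mapkapk2 without high dose mouse 1. With the replicate block 34, 3 and 11 genes and 0 kinases passed, so it changed no kinase call. Scales without Tubb5, or without Gapdh and Pgk1, and the fit without a filter passed 0 kinases; the first and the fit without control mice 1 and 2 were chosen after seeing the data. Counts of 6 to 13 limit Map3k9, and 4 mice a group limit all members.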
